A study of Mus musculus with 6 samples.

Results

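The miR-23, miR-27 and miR-24 microRNAs (miRNAs) come from 2 clusters of similar build, an a cluster (Mir23a, Mir27a, Mir24-2) on mouse chromosome 8 and a b cluster (Mir23b, Mir27b, Mir24-1) on chromosome 13. Their members were taken by name from a table of mature miRNA read counts: 10 listed rows of 1626 in all, 5 from the guide (3p) arms and 5 from the passenger (5p) arms. The row of miR-23b-5p, the remaining passenger arm of the b cluster, was added for completeness. Fetal liver, a site of red cell formation, was the source of total RNA for 6 small RNA libraries. WT libraries 1 to 3 are from wild-type C57BL/6J embryos, and KO libraries 4 to 6 from C57BL/6J embryos of genotype miR-144/451-/-, in which both copies of that erythroid miRNA locus are deleted. Both groups are of the same strain and neither carries another allele or treatment according to the labels, which give no embryonic day and do not say whether the replicates were separate embryos or litters. The spread behind each p-value is that of these libraries and may be technical in part.

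Each cluster is transcribed as 1 primary RNA from which 3 hairpins are cut, and each hairpin gives a guide strand that enters Argonaute and a passenger strand that is mostly degraded. A miRNA finds its targets mainly through its seed, the short stretch near its 5′ end. The a cluster is known for favouring myeloid over B-lymphoid development, and the b cluster for roles in endothelium and angiogenesis. Among the guides, miR-24 is known to restrain erythroid differentiation, miR-27 to repress the haematopoietic factor Runx1, and miR-23 to repress glutaminase.

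The guide sequences are shown because they decide which rows can be read as separate signals. RefSeq (GRCm38.p6) gave mature sequences for 10 of the 11 named miRNAs, all on the plus strand. Capitals mark the seed, bases 2 to 8 counted from the 5′ end.
miR-23a-3p: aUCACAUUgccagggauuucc
miR-27a-3p: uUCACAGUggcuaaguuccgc
miR-27b-3p: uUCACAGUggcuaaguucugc
miR-24-3p: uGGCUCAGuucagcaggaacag
The 2 miR-27 guides differ by the single substitution C19U (miR-27a-3p base first, counted from the 5′ end) and share their seed. miR-24-3p has the same sequence in both clusters, at chr8:84208875-84208896 and chr13:63301251-63301272, so its row cannot be assigned to either. The RefSeq table of 1679 mature names had no entry for miR-23b-3p. Among the names it held, no other had the seed of miR-23a-3p, and only the paralogue shared that of miR-27. The seed of miR-24-3p occurred in 4 other names, 2 of which had rows of counts here.

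For miR-23b-3p the hairpin is shown. The Mir23b hairpin, chr13:63300484-63300557, holds the first 18 bases of miR-23a-3p without a change, printed here in capitals. This stretch includes the seed of miR-23a-3p.
Mir23b: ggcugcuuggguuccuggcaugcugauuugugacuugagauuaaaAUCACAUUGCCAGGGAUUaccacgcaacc

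The passenger arms are shown because they were meant to tell the clusters apart, with capitals again on bases 2 to 8.
miR-23a-5p: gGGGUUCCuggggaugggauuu
miR-23b-5p: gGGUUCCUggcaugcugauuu
miR-27a-5p: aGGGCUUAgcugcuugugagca
miR-27b-5p: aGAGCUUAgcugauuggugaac
miR-24-2-5p: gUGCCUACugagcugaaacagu
miR-24-1-5p: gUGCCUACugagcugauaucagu
The miR-23 passengers and the miR-27 passengers each lie 5 edits apart and have different seeds. The miR-24 passengers lie 2 edits apart, with their first 16 bases identical and the same seed.

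The a cluster spans 404 bases (chr8:84208518-84208921, plus strand), with gaps of 79 and 56 bases between its hairpins. In GENCODE M21 it lies outside protein-coding genes. The lincRNA Gm26532 overlaps the last 2 bases of Mir24-2, and Mir3074-2 is annotated on the opposite strand of Mir24-2. The b cluster spans 792 bases (chr13:63300484-63301275, plus strand), with gaps of 154 and 423 bases. It lies inside the protein-coding gene 2010111I01Rik on the same strand and inside Fancc on the opposite strand. Mir23b overlaps no annotated exon of 2010111I01Rik, while Mir27b (all 73 bases) and Mir24-1 lie wholly or partly in exons of transcripts of that gene that are not annotated as protein-coding.

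**Figure D1:**
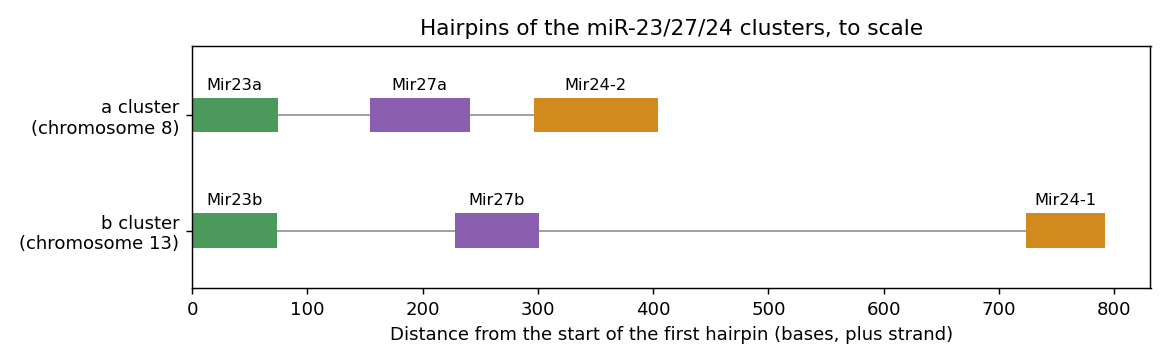
Position of the 3 hairpins of each cluster along the plus strand, in bases from the start of the first hairpin, drawn to scale. The order is the same in both clusters, and the b cluster (792 bases) is longer than the a cluster (404 bases) mainly through the gap of 423 bases before Mir24-1.

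The libraries held 16243894 to 27089133 miRNA counts each, and the products of the deleted locus took 17.6% to 24.1% of WT counts and 0.0214% to 0.0231% of KO counts, so the genotype labels matched the deleted locus in all 6. Without a scaling factor, the tested miRNAs that are not products of the locus had a median log2 fold (KO over WT) of 0.34, and after TMM scaling (edgeR's trimmed-mean scaling) it was -0.014. Hepatocyte, endothelial, myeloid and pan-haematopoietic marker miRNAs were present in every library. WT library 3 and KO library 6 held the most hepatocyte marker miRNA of their genotype.

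Of the 5 a/b pairs of rows, 3 carried nearly the same counts in every library and could not be read as separate signals. miR-23a-3p and miR-23b-3p had 19067 and 19055 counts in WT library 1, and their counts differed by 0.00738% to 0.0633% over the 6 libraries. miR-27a-3p and miR-27b-3p differed by 0.281% to 0.392%, with 140 to 192 more counts for miR-27b-3p in each library. The passenger rows miR-24-2-5p and miR-24-1-5p differed by 1.89% to 2.88%, with 57 to 132 more counts for miR-24-2-5p. Read counts of the miR-24 passengers therefore did not separate the clusters, although these arms are named for one hairpin each.

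The other pairs did separate. miR-27a-5p and miR-27b-5p differed by 52.4% to 74.0%, and miR-23a-5p and miR-23b-5p by 18.8% to 86.0%. Over the whole table, rows averaging 100 counts or more and with similar sequences behaved in both ways. Within 5% of each other in every library were 5 of 17 pairs that lie 1 edit apart and 9 of 33 that lie 2 edits apart. At 3 edits it was 1 of 29, at 4 edits 3 of 39, and at 5 edits 0 of 36. Of the pairs at 1 or 2 edits, 9 of 13 with their first 16 or more bases identical were that close. Among those with fewer leading bases identical it was 5 of 37, a split chosen after seeing the data. Those 5 had only 0 to 3 leading bases identical, though they lie 1 or 2 edits apart. These counts include the cluster pairs themselves. miR-27-3p (18 leading bases identical) and miR-24-5p (16) are among the 9, and miR-27-5p is among the 36. How reads that match several miRNAs were counted is not given in the sources used here.

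**Figure D2:**
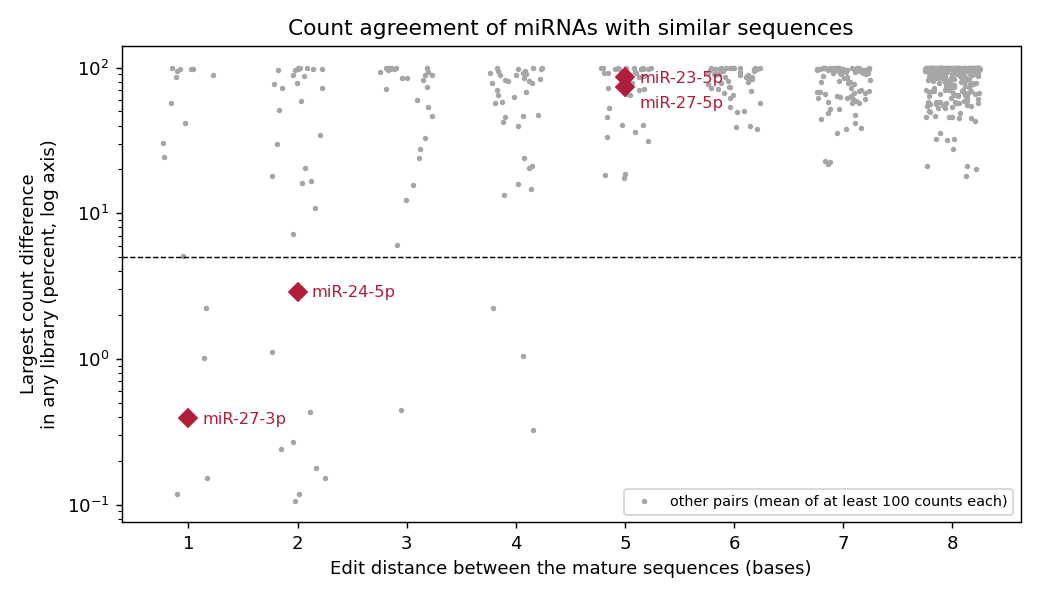
Largest count difference in any library (percent of the larger count, log axis) against the edit distance of the mature sequences, for pairs of miRNAs that each average 100 counts or more (grey) and the a/b pairs of the clusters (red; the miR-23-5p pair has lower counts and the miR-23-3p pair is not drawn). The dashed line marks 5%; miR-27-3p (0.392%) and miR-24-5p (2.88%) lie below it and the miR-23 and miR-27 passenger pairs above it.

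The guides were among the abundant miRNAs of the fetal liver. Levels are given as TMM-scaled counts per 1000000 (CPM), and levels of different miRNAs compare only roughly, since small RNA libraries capture sequences unequally. The row names carry the prefix of the mouse, as in mmu-miR-24-3p, mmu-miR-27b-3p and mmu-miR-23a-3p, and values are listed in library order. mmu-miR-24-3p was the highest, with 2943, 3625 and 4334 CPM across WT and 3084, 3090.0 and 3975 CPM across KO. The miR-27 guide signal, read from the row of mmu-miR-27b-3p, stood at 2283, 2416 and 2272 CPM in WT and 2162, 2409 and 2212 CPM in KO. The miR-23 guide signal, read from mmu-miR-23a-3p, stood at 1042, 1072 and 1346 CPM in WT and 905.1, 960.3 and 1038 CPM in KO. Row by row, the order miR-24, miR-27, miR-23 held in each of the 6 libraries. How reads shared by a pair of rows were counted is not given. If they were divided between the rows, the miR-27 and miR-23 signals would be larger than shown, and this order could differ. By mean CPM, miR-24-3p ranked 54, miR-27b-3p 67 and miR-23a-3p 100 among all 1626 rows.

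The guide rows, none of which separates the clusters, did not stand in a fixed proportion across libraries. The ratios given are of single rows. The count of miR-24-3p was 1.29, 1.50 and 1.91 times that of miR-27b-3p in WT and 1.43, 1.28 and 1.80 times in KO, so it was highest in WT library 3 and KO library 6. miR-23a-3p had 0.456, 0.444 and 0.592 of the miR-27b-3p count in WT and 0.419, 0.399 and 0.469 in KO.

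All passenger arms lay far below the guides, those of miR-24 the highest among them. The row of miR-24-2-5p stood at 152.2, 193.0 and 284.9 CPM in WT and 151.8, 189.8 and 199.1 CPM in KO, and miR-24-1-5p repeated the same signal. miR-27b-5p, which marks the b cluster, stood at 17.2, 23.5 and 24.8 CPM in WT and 22.8, 19.7 and 26.2 CPM in KO. miR-27a-5p, which marks the a cluster, stood at 7.65, 10.9 and 9.86 CPM in WT and 5.95, 5.58 and 12.5 CPM in KO. It lay below miR-27b-5p in every library.

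For the miR-23 passengers the order was the opposite. miR-23a-5p stood at 3.11, 5.01 and 6.81 CPM in WT and 1.61, 2.71 and 8.12 CPM in KO, above miR-23b-5p in each library, though narrowly in KO library 4 (32 against 26 counts). miR-23b-5p stood at 0.874, 0.704 and 2.25 CPM in WT and 1.31, 1.22 and 1.99 CPM in KO. These are shallow values: miR-23a-5p rested on 32 to 212 counts per library and miR-23b-5p on 16 to 52, whereas the floor set by a count of 0 (3 counts) was 0.111 to 0.185 counts per 1000000.

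**Figure D3:**
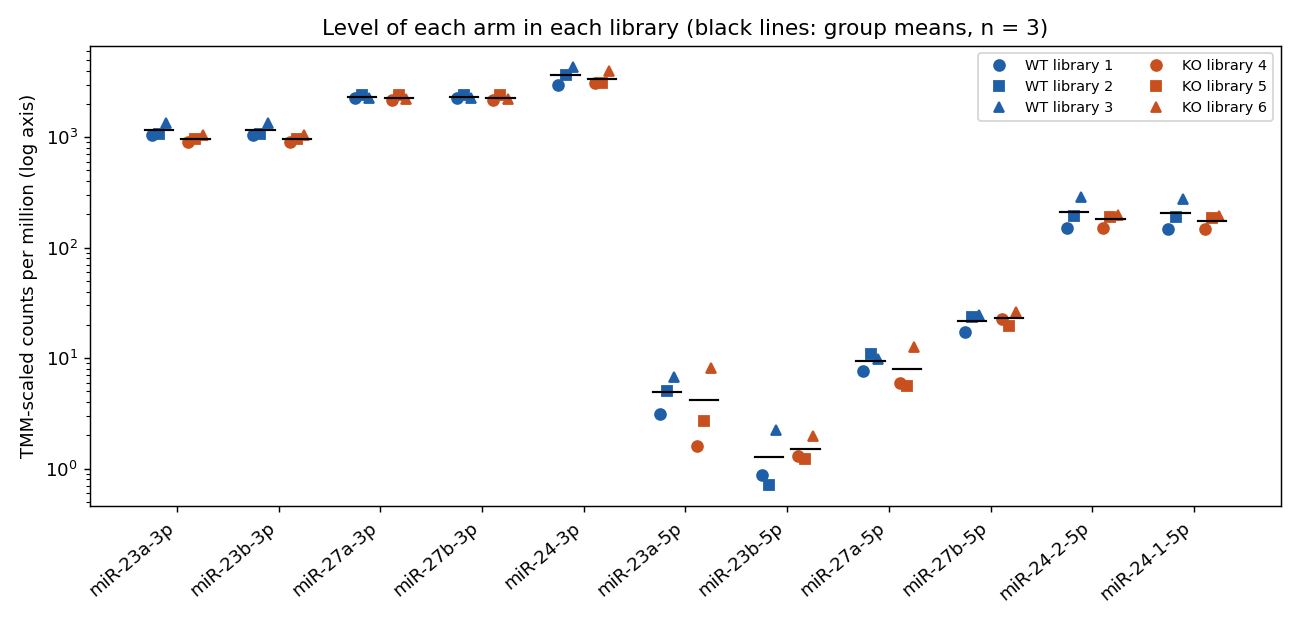
TMM-scaled counts per 1000000 (log axis) of the 10 listed arms and miR-23b-5p per library (points, 3 a genotype), with group means (black lines). The rows of each near-identical pair stand at nearly the same level, miR-24-3p is the highest at 2943 to 4334 CPM, and miR-23a-5p and miR-27a-5p spread most within KO.

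The first comparison asked whether the clusters changed when the miR-144/451 locus was lost. None of the 10 listed members passed the test: 0 of 10 had a Benjamini-Hochberg adjusted p under 0.05 in edgeR's quasi-likelihood test over all 876 tested miRNAs, where 0.799% were called. Those called were 4 higher in KO (0.457%) and 3 lower (0.342%), the latter all products of the deleted locus. All 10 passed the filter on low counts, as did miR-23b-5p. At an unadjusted p under 0.05, 0 of 10 members stood, against 11.3% of all tested miRNAs, and DESeq2 and limma-voom likewise called 0. Of the 10 log2 folds, 1 was above 0 and 9 were below, with a median of -0.22, beside 416 above and 460 below and a median of -0.014 over all tested miRNAs. The 10 rows hold fewer separate signals than their number, because of the shared counts.

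miR-23, the lowest guide, had the largest fold among the guides. The WT mean was 1153 ± 167.5 CPM and the KO mean 967.8 ± 66.7 CPM (SD, n = 3 each), and the lowest WT library (1042 CPM) lay just above the highest KO library (1038 CPM). Its log2 fold of -0.25 (SE 0.16, 95% interval -0.63 to 0.12) had an edgeR Benjamini-Hochberg adjusted p of 0.598. Its 2 rows were the only listed members whose genotypes did not overlap, both lower in KO, and together they are 1 signal; 5.94% of all tested miRNAs lay lower in KO without overlap and 21.8% did so in either direction.

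The miR-27 and miR-24 guides overlapped between the genotypes. For miR-27b-3p the means were 2324 ± 80.5 CPM (WT) and 2261 ± 130.8 CPM (KO), a log2 fold of -0.039 (SE 0.12, 95% interval -0.32 to 0.24), and the intervals of this guide and of miR-27a-3p were the narrowest of the 10. For miR-24-3p they were 3634 ± 695.7 and 3383 ± 512.6 CPM, a log2 fold of -0.10 (SE 0.19, 95% interval -0.55 to 0.34). Their edgeR Benjamini-Hochberg adjusted p were 0.971 and 0.903.

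Among the passengers, miR-24-2-5p had means of 210.0 ± 67.9 CPM (WT) and 180.2 ± 25.1 CPM (KO), a log2 fold of -0.22 (SE 0.27). For the b-cluster markers the log2 fold was 0.071 (SE 0.22) in miR-27b-5p and 0.25 (SE 0.50) in miR-23b-5p. For the a-cluster markers it was -0.24 (SE 0.36) in miR-27a-5p and -0.25 (SE 0.61) in miR-23a-5p. The intervals of the last pair, -1.08 to 0.61 and -1.70 to 1.19, are wide, so that changes within them were not detectable at this depth and spread. KO library 6 set their size: without it the log2 fold of miR-23a-5p was -1.21 and that of miR-27a-5p -0.72, where edgeR gave Benjamini-Hochberg adjusted p of 0.448 and 0.475. Without KO library 4 the fold of miR-23a-5p was 0.051, without WT library 3 it was -0.053, and without KO library 5 it was -0.062. That of miR-27a-5p without KO library 5 was -0.063. The b-cluster markers turned sign as well: miR-23b-5p ran from -0.094 without WT library 2 to 0.86 without WT library 3, and was -0.011 without KO library 6. For miR-27b-5p, leaving out WT library 1 gave -0.074, and leaving out KO library 6 gave -0.040.

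**Figure D4:**
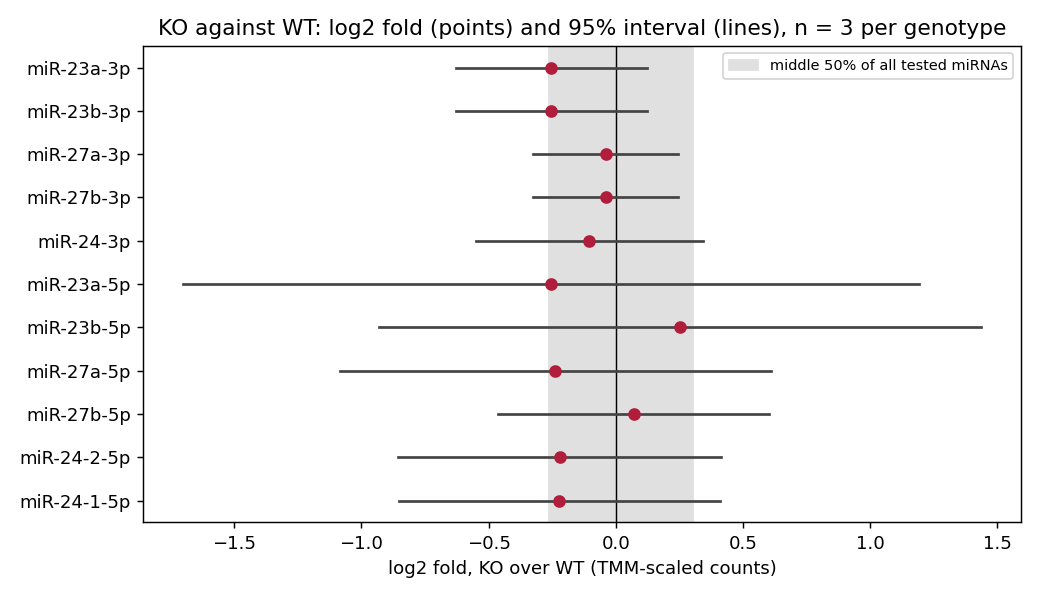
Log2 fold of KO over WT (points) with its 95% interval (lines) for the 10 listed arms and miR-23b-5p, on TMM-scaled counts; the grey band runs between the quartiles of all tested miRNAs, from -0.26 to 0.30. All 11 intervals include 0, and they are narrowest for the miR-27 guides and widest for miR-23a-5p.

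The direction of the folds is relative to the typical miRNA. As a share of the whole library, without a scaling factor, all 10 members were above 0, at log2 folds of 0.075 to 0.43. The typical miRNA itself moved to 0.34 in this fit (median, leaving aside the products of the deleted locus). Only miR-27b-5p (0.43) of the 10 lay above it. An unadjusted p under 0.05 was found for 2 rows, those of the miR-27 guides, with an adjusted p of 0.176 each by edgeR. These rows carry nearly the same counts and are not separate signals. How many of all tested miRNAs had such an unadjusted p in this fit is not given. Without a scaling factor, 58 miRNAs were called higher and 3 lower among all tested, against 4 and 3 after TMM scaling. In percent of library counts, miR-27b-3p took 0.201%, 0.215% and 0.199% in WT and 0.264%, 0.265% and 0.240% in KO. The 10 rows together took 0.973% ± 0.0947 in WT and 1.16% ± 0.0317 in KO (SD, n = 3 each). Counting each near-identical guide pair once, the values were 0.667% ± 0.0831 and 0.792% ± 0.0394. Of the counts outside the deleted locus, the 10 rows took 1.22% ± 0.0947 in WT and 1.16% ± 0.0317 in KO, so the groups changed order with the denominator. The Wilson 95% interval of each library's share was no wider than from 1.160% to 1.170%, for KO library 4, and covers counting error only.

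The balance of the clusters was read from the passengers that separate them. The ratio of miR-27a-5p to miR-27b-5p was 0.446, 0.461 and 0.398 in WT and 0.260, 0.284 and 0.476 in KO. The WT libraries lay close together, while KO libraries 4 and 5 lay below them and KO library 6 above. The log2 ratio, with 1 count added to each, averaged -1.20 ± 0.11 in WT and -1.60 ± 0.47 in KO (SD, n = 3 each), a difference of -0.40 with an exact two-sided permutation p of 0.4 (0.667 adjusted over 5 ratios; the smallest possible p is 0.1).

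The ratio of the miR-23 passengers, on fewer counts, also averaged lower in KO. Here, however, the a-cluster arm lay above the b-cluster arm, the WT libraries were spread, and KO library 6 lay within their range. miR-23a-5p had 3.56, 7.12 and 3.02 times the counts of miR-23b-5p in WT and 1.23, 2.23 and 4.08 times in KO. The log2 ratio averaged 2.04 ± 0.64 and 1.14 ± 0.86, a difference of -0.90 (exact two-sided permutation p = 0.3, adjusted 0.667, n = 3 each). With both passengers summed, a ratio chosen after seeing the data, the a-cluster arms held 37.4%, 39.6% and 38.1% of these counts in WT and 23.8%, 28.4% and 42.2% in KO. The pairs disagreed: the a-cluster arm held 55.2% to 87.7% of the miR-23 pair and 20.7% to 32.2% of the miR-27 pair. The sum was weighted to miR-27b-5p, its largest row, and does not measure the share of a cluster. The log2 ratio of the sums differed by -0.47 (exact two-sided permutation p = 0.4). With 3 libraries a genotype this permutation test cannot reach the threshold, so it could not have called any of these differences, and no other test of the cluster ratios was run. Without KO library 6 the difference was -0.67 for miR-27-5p and -1.33 for miR-23-5p; without KO library 4 it was -0.24 and -0.47. The ratios of the near-identical rows say nothing of the clusters: for miR-24-5p, miR-23-3p and miR-27-3p the difference was at most 0.00055 on the log2 scale, with exact two-sided permutation p of 0.3 to 0.9 (adjusted 0.667 to 0.9).

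Arm use was compared next, as the ratio of passenger to guide counts within a library, which needs no scaling. Passengers made up 4.69% to 6.17% of the counts of both arms for Mir24-2, 0.746% to 1.17% for Mir27b, 0.232% to 0.563% for Mir27a, 0.178% to 0.777% for Mir23a and 0.0656% to 0.192% for Mir23b. The guide rows in these ratios do not separate the clusters, so the percentages are not those of each hairpin alone. If each miR-23 and miR-27 guide row holds the reads of both clusters, their percentages are too low. The miR-24 passenger rows likewise carry nearly the same counts and do not separate the hairpins.

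None of the 6 hairpins was called for a change of arm ratio in KO by limma's trend test over 265 hairpins. Among all 265, 0% were called and 15 had an unadjusted p under 0.05. The largest difference was that of Mir23b, whose log2 ratio went from -9.94 ± 0.67 in WT to -9.31 ± 0.29 in KO (SD, n = 3 each). The difference was 0.63 (SE 0.32, 95% interval -0.08 to 1.33) with a limma Benjamini-Hochberg adjusted p of 0.790. Leaving out WT library 2 gave 0.35, and leaving out WT library 3 gave 0.998. The others were -0.28 (SE 0.30) for Mir27a, -0.27 (SE 0.43) for Mir23a, 0.12 (SE 0.21) for Mir27b and -0.086 (SE 0.18) for both Mir24 hairpins, all with a limma adjusted p of 0.944.

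Much of the spread of the members lay within genotypes, between libraries. Centred on the mean of the 6 libraries, the log2 level of miR-24-3p was 0.32 in WT library 3 and 0.20 in KO library 6, the highest of each genotype, and -0.24 to 0.062 in the others. miR-24-2-5p stood at 0.58 in WT library 3 but 0.062 in KO library 6, and miR-23a-3p at 0.35 and -0.020. The a-cluster passengers, miR-23a-5p and miR-27a-5p summed, were at 0.39 and 0.68 in those libraries and at -0.66 and -0.54 in KO libraries 4 and 5. The miR-27 guide was the steadiest, at -0.083 to 0.077 over all libraries.

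Marker lists of other cell types also varied between the libraries, not all in the same direction. miR-122-5p, the main hepatocyte miRNA, stood at 29323, 50130 and 117798 CPM in WT and 37308, 42829 and 92264 CPM in KO. Summed over its 3 markers, the hepatocyte list ran from 33898 to 131534 CPM in WT and from 42196 to 102282 CPM in KO, and none of the 3 was at 0 in any library. The endothelial miR-126a arms summed to 7323 to 10523 CPM in WT and 7734 to 11046 CPM in KO, and were also highest in WT library 3 and KO library 6. The mesenchymal list (5 of 5 members detected in every library) summed to 2286 to 3156 CPM in WT and 2052 to 2979 CPM in KO, with the same 2 libraries highest. Its largest member was miR-143-3p. Within WT, miR-199a-3p (849.3, 598.1 and 771.6 CPM) and miR-214-3p (37.9, 25.5 and 29.6 CPM) were instead highest in library 1, and the other members in library 3. The epithelial list summed to 339.6, 310.6 and 704.9 CPM in WT and 274.3, 337.3 and 555.6 CPM in KO, again highest in WT library 3 and KO library 6. Unlike miR-200a-3p and miR-200b-3p, its member miR-141-3p was lowest there within each genotype, at 34.1 and 44.4 CPM. The pan-haematopoietic list was also lowest in those libraries, at 32178, 34104 and 28584 CPM in WT and 32542, 38757 and 25848 CPM in KO. The muscle list was highest in WT library 1 and KO library 4. The part of these cell types in the spread of miR-24-3p and the a-cluster passengers was not tested. In tissue RNA, fewer cells of a type and less RNA per cell cannot be told apart.

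Without WT library 3 and KO library 6, a choice made after seeing the data, the log2 fold was -0.11 for miR-24-3p, -0.21 for miR-23a-3p, -0.069 for miR-27b-3p, -0.042 for miR-24-2-5p, 0.046 for miR-27b-5p, -0.70 for miR-27a-5p and -0.94 for miR-23a-5p. The lowest edgeR Benjamini-Hochberg adjusted p of the 10 was then 0.374. The myeloid miR-223 arms, of interest beside the a cluster, summed to 15698 to 20736 CPM in WT and 8883 to 16311 CPM in KO, and 0 of 2 were called. The lymphoid list summed to 189.6 to 210.3 CPM in WT and 134.4 to 167.3 CPM in KO, and 0 of 2 were called. Of its members, miR-155-5p lay lower in KO without overlap, as 5.94% of all tested miRNAs did, while miR-150-5p overlapped (30.9 to 65.8 CPM in WT, 22.7 to 42.3 CPM in KO). On the erythroid list 2 of 3 were called lower, miR-451a and miR-144-3p of the deleted locus, and miR-486a-5p was not called. Among the remaining lists, 0 of 2 pan-haematopoietic, 0 of 3 epithelial and 0 of 3 muscle miRNAs were called, and the muscle list ran from 14.4 to 400.3 CPM within WT.

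**Figure D5:**
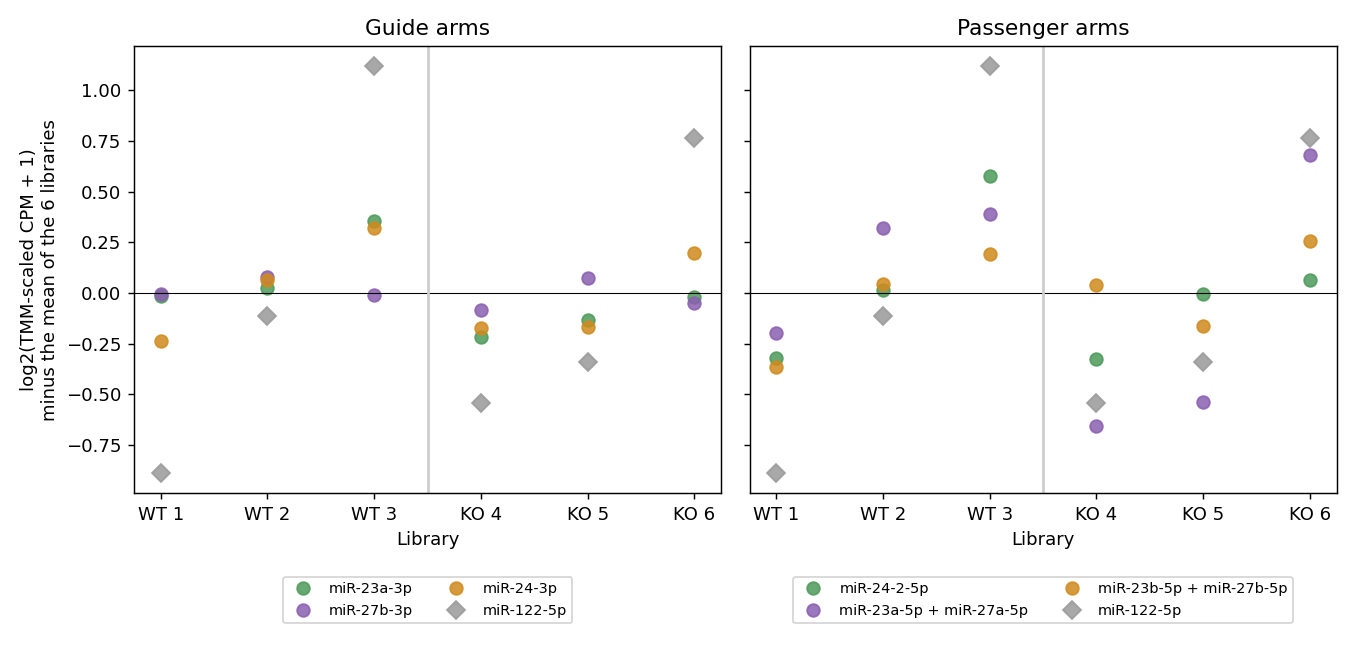
Log2(TMM-scaled CPM + 1) minus the mean of the 6 libraries for the guide signals (left) and passenger signals (right), with the hepatocyte miR-122-5p as grey diamonds in both; each point is 1 library. miR-24-3p is highest in WT library 3 (0.32) and KO library 6 (0.20), the miR-27 guide stays within -0.083 to 0.077, and the a-cluster passengers range from -0.66 to 0.68.

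The miRNAs whose library profiles were nearest to those of the clusters were found among 228 others with a mean of at least 100 CPM, by the mean absolute difference of centred log2 levels over the 6 libraries. Nearest to miR-24-3p were miR-28a-5p and miR-28c, whose own profiles were nearly the same, and miR-130a-3p, all at 0.085, beside a median of 0.29 over the candidates. Nearest to the summed passengers of either cluster, of which miR-24 took 86.0% to 95.8%, were miR-146a-5p and miR-146b-5p (a single signal, within 0.239% in counts) and miR-148a-3p, at 0.072 to 0.11. With the miR-24 passengers left out, the a-cluster sum lay nearest to miR-433-3p (0.22), miR-99b-5p (0.24) and miR-323-3p (0.24). The b-cluster sum then lay nearest to miR-28a-5p, miR-28c and miR-5100 (0.087 each), so with the shared passenger left out the clusters had no nearest name in common.

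miR-128-3p is a relative of miR-27 by sequence, since its seed CACAGUG is that of miR-27 moved along by 1 base.
miR-128-3p: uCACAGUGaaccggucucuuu
It stood at 462.4, 495.2 and 429.3 CPM in WT and 555.8, 561.3 and 604.1 CPM in KO, without overlap and higher in KO. Its log2 fold of 0.31 (SE 0.14) had an edgeR Benjamini-Hochberg adjusted p of 0.490, so it was not called either, and 15.9% of all tested miRNAs were higher in KO without overlap. No row named for the miR-3074 arms, annotated opposite the Mir24 hairpins, was among those read, so these arms were not analysed.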

How the data were processed

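The authors deposited raw read counts per mature miRNA for 6 libraries of mouse fetal liver, made with a NEXTflex small RNA kit and sequenced on a HiSeq2000, per the labels. Each deposited percent value was the count as a percent of its library's total (tolerance 5e-09). One tool, cutadapt, is listed per the submitters' processing notes. Aligner, counting rule, annotation and build are not given in the sources used here. HITS-CLIP appears in the design text, but the sample labels say miRNA sequencing, and the values were read as that.

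Counts were tested in R 4.3.3 with edgeR 4.0.16 (TMM scaling, filterByExpr, quasi-likelihood F-test, Benjamini-Hochberg adjustment over 876 miRNAs kept of 1626). Standard errors are the absolute log2 fold over the square root of F. Arm ratios, log2((5p + 1)/(3p + 1)), were tested with limma 3.58.1 where each arm of a hairpin averaged 10 counts or more. DESeq2 1.42.0 and limma-voom were alternatives. Cluster ratios used exact permutation over 20 assignments. Edit distances came from RefSeq sequences (GRCm38.p6). Code was tested on simulated data. Named miRNAs were the members, marker lists, miR-128-3p, and the 3 nearest profiles of miR-24-3p and of each passenger sum. Members and lists were chosen with earlier results of these data known. No within-group pair of libraries matched within sampling noise (chi-square per degree of freedom 152 to 2335).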

Additional observations from a re-analysis of the deposited data

How the results depend on the processing

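No listed member was called under any of the 15 alternatives fitted. All miRNAs called numbered 7 in the reported fit, 4 with RLE or upper-quartile scaling or with the locus removed before scaling, 61 with no scaling factor, 15 with DESeq2 and 3 to 4 without any 1 library. Signs changed for small folds. With no scaling factor the log2 fold was 0.11 for miR-23a-3p and miR-23b-3p, 0.32 for miR-27a-3p and miR-27b-3p, 0.25 for miR-24-3p, 0.075 for miR-23a-5p, 0.11 for miR-27a-5p, and 0.14 for miR-24-2-5p and 0.13 for miR-24-1-5p; this moved the typical miRNA to 0.34. With upper-quartile scaling, which moved it to 0.092, the fold was 0.068 for both miR-27 guides and 0.010 for miR-24-3p. With the locus removed before scaling miR-27b-5p stood at -0.00040. Leaving out 1 library gave -0.074 to 0.15 for miR-27b-5p, -0.094 to 0.86 for miR-23b-5p and -1.21 to 0.051 for miR-23a-5p. Arm ratio differences then ran from -0.032 to 0.27 for Mir27b, -0.18 to 0.022 for Mir24-1, -0.19 to 0.023 for Mir24-2, -0.86 to 0.19 for Mir23a, 0.35 to 0.998 for Mir23b and -0.67 to -0.031 for Mir27a, with 0 hairpins called. Cluster ratio differences ran from -0.67 to -0.24 for miR-27-5p, -1.33 to -0.47 for miR-23-5p, -0.0036 to 0.0037 for miR-24-5p, -0.00017 to 0.00024 for miR-23-3p and 0.00020 to 0.00094 for miR-27-3p. The share of the 10 rows ran from 0.928% to 1.02% in WT and 1.14% to 1.17% in KO; it was 1.22% in WT with the locus left out of the total, and 0.667% in WT and 0.792% in KO with 1 row per guide pair. The cause of these sign changes beyond the scaling was not tested. No paired analysis was possible because the WT libraries are numbered 1 to 3 and the KO libraries 4 to 6 and share no number. Counts of 16 to 52 limit miR-23b-5p in particular.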
